A study of Homo sapiens with 6 samples.

Results

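Divergent pairs are places where a minus-strand and a plus-strand peak of m6A signal lie side by side in the genome, head to head. RNAs of the stated strands would run away from each other, but whether separate RNAs carry the peaks was not tested. A total of 114 such pairs were found, made of 221 of the 25737 peak regions of the series (109 on the minus strand and 112 on the plus strand). They were chosen by the peaks themselves. Same-strand peaks of the 3 deposited lists were joined into a region wherever they overlapped by 1 bp or more. A minus-strand and a plus-strand region were paired when they overlapped or lay at most 2000 bp apart and the minus-strand region had the lower centre. The number, order and spacing of the pairs are therefore descriptions and not findings.

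The series holds 6 libraries of HEK293T, an established cell line derived from human embryonic kidney and expressing SV40 large T antigen. Methylated RNA immunoprecipitation sequencing (MeRIP-seq) was done 3 times in the same way, each time with RNA pulled down by an antibody (IP) and RNA sequenced without pull-down (input), and the labels of these libraries name no treatment, mutation or knockdown. The labels name the repeats MeRIP 1, MeRIP 2 and MeRIP 3, and each has 1 list of peaks. Separate cultures are not mentioned for them, so the spread between lists may be technical.

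N6-methyladenosine (m6A) is the most common internal mark of mRNA, written mainly by METTL3 with METTL14, while METTL16, the enzyme named in the title of the series, writes it on a different set of RNAs. Many human genes are arranged head to head and are transcribed in opposite directions from a shared, often CpG-rich, promoter. The first nucleotide after the cap can carry the related mark m6Am, which antibodies against m6A also bind, so MeRIP-seq signal at the start of a transcript can come from either mark. Whether a given pair lies at such a promoter was not analysed here. The lists carry positions and no gene names, so pairs are named by chromosome and position (hg19, counted from 1), and genes, exons and sequences are not given.

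Each peak has a score, which is the authors' own value and ran from 50 up to a ceiling of 3100 shared by many peaks. Higher scores were treated as 3100. No header gives its scale, and it is not a level of methylation. Peak lists hold no RNA level and no read depth, so a region without a peak in a list cannot be told apart from a region with too little RNA or too few reads there. Peak numbers ran up to 96698, 74706 and 75015 in MeRIP 1, 2 and 3. The lists held 22.0, 26.6 and 26.7% as many peaks. A peak that was called and then left out of a list would also appear as missing, and this was not tested. Within a list no peaks overlapped one another, on either strand, and every peak name occurred once. The sources used here do not tell how a strand was given to each peak, so strand is used as the lists state it, and the part of that step in any difference of strand between lists was not tested.

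The strands of a pair were often found in different lists. In 39 of 114 pairs (34.2%, 95% Wilson interval 26.1 to 43.3%) the regions on the opposite strands were never found in the same list. For comparison, 11.2% of neighbouring regions on the same strand shared no list. In convergent pairs the plus-strand region has the lower centre, so that RNAs of the stated strands would run toward each other. Of these, 25 of 145 shared no list (17.2%, 12.0 to 24.2%). In 31 of the 39 divergent pairs (27.2% of all 114, 19.9 to 36.0%) every list had a peak in exactly 1 of the regions. The same held for 6.98% of same-strand neighbours and for 16 of 145 convergent pairs (6.91 to 17.2%), in which the plus-strand region has the lower centre and the RNAs run toward each other. In 22 divergent pairs (19.3%, 13.1 to 27.5%) both regions were in all 3 lists, 21 shared 2 lists and 32 shared 1. Both regions were in all 3 lists for 24.1% of convergent pairs (17.9 to 31.7%), an overlapping interval. For same-strand neighbours this share was 32.4% (30.9 to 34.0%). Over 500 bp it was 29.6% of divergent pairs (20.2 to 41.0%) and 34.3% of same-strand neighbours (32.6 to 36.0%), with overlapping intervals. A peak on at least 1 of the strands was present in every list in 95 of 114 pairs (83.3%, 75.4 to 89.1%), close to the 85.3% of same-strand neighbours and the 87.6% of convergent pairs with a peak in every list.

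**Figure D1:**
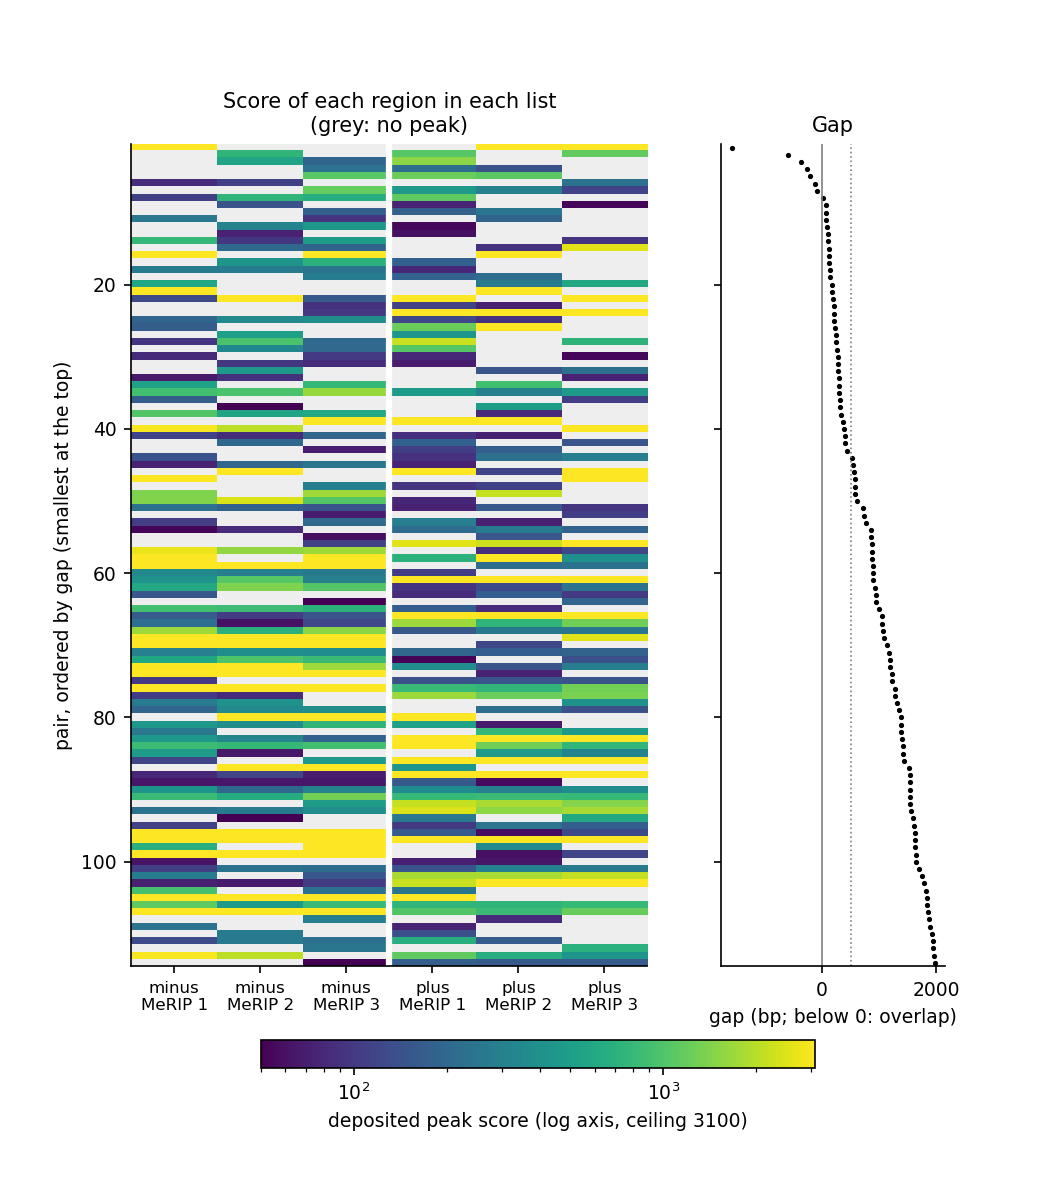
Scores of the 114 divergent pairs, ordered from the longest overlap (top) to the widest gap (bottom), with the minus-strand region in the left columns and the plus-strand region in the right columns, 1 column per list; colour is the score on a log axis and grey means no peak. The right panel gives the gap in bp, with a dotted line at 500 bp. In the upper part, grey and coloured cells often mirror each other between the strands, and rows coloured in all 6 columns lie mostly in the lower part.

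Overlapping pairs come first. Since no peaks of 1 list overlapped, the regions of such a pair could share a list only through peaks that did not overlap each other. Their division between lists was therefore partly set by the lists themselves. The longest overlap, 1593 bp, was on chromosome 19 between a minus-strand region at 45910974 to 45912983 and a plus-strand region at 45911391 to 45914024. Its minus-strand region had a score of 3100 in MeRIP 1 and no peak in MeRIP 2 and MeRIP 3. The plus-strand region had no peak in MeRIP 1 and 3100 in both MeRIP 2 and MeRIP 3. Every list had a score at the ceiling in this locus, and the strand stated for it differed between lists.

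On chromosome 16 a minus-strand region at 50347398 to 50349869 and a plus-strand region at 50349270 to 50351479 overlapped by 600 bp. MeRIP 2 had the minus-strand peak, with a score of 748, while MeRIP 1 and MeRIP 3 had the plus-strand peak, with 1068 and 1157. The scores are of similar size although the strands differ. The next overlap, 373 bp on chromosome 3, lay between 66429362 to 66430913 on the minus strand (553 in MeRIP 2 and 189 in MeRIP 3) and 66430541 to 66431377 on the plus strand (1516 in MeRIP 1). Of the 7 overlapping pairs, 6 had exactly 1 region per list. The exception, on chromosome 17 with the minus-strand region at 5322674 to 5323059, had a peak on both strands in MeRIP 3, with 1174 on the minus strand and 115 on the plus strand. Overlapping convergent pairs, under the same limit, had exactly 1 region per list in 8 of 23 cases (34.8%, 18.8 to 55.1%). This interval overlapped that of the overlapping divergent pairs (48.7 to 97.4%).

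Regions with a clear gap between them alternated too. The next examples were chosen after their values were seen. On chromosome 19 a minus-strand region at 54618627 to 54619055 scored 3100 in MeRIP 1 and MeRIP 3, and a plus-strand region 125 bp away, at 54619181 to 54619701, scored 3100 in MeRIP 2 alone. On chromosome 2 the minus-strand region at 71356847 to 71357344 had 530 in MeRIP 1 and 786 in MeRIP 3, and the plus-strand region at 71357648 to 71357884 had 891 in MeRIP 2. In both pairs MeRIP 2 stood apart from the other lists.

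The alternation was spread over the lists. Among the 31 pairs with exactly 1 region per list, the list that had its own strand was MeRIP 1 in 10 pairs, MeRIP 2 in 9 and MeRIP 3 in 12. The minus-strand region was the one found in that single list in 15 pairs and the plus-strand region in 16. These pairs lay on 17 chromosomes and had a median gap of 266 bp. In 4 of them the score was 3100 in every list.

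**Figure D2:**
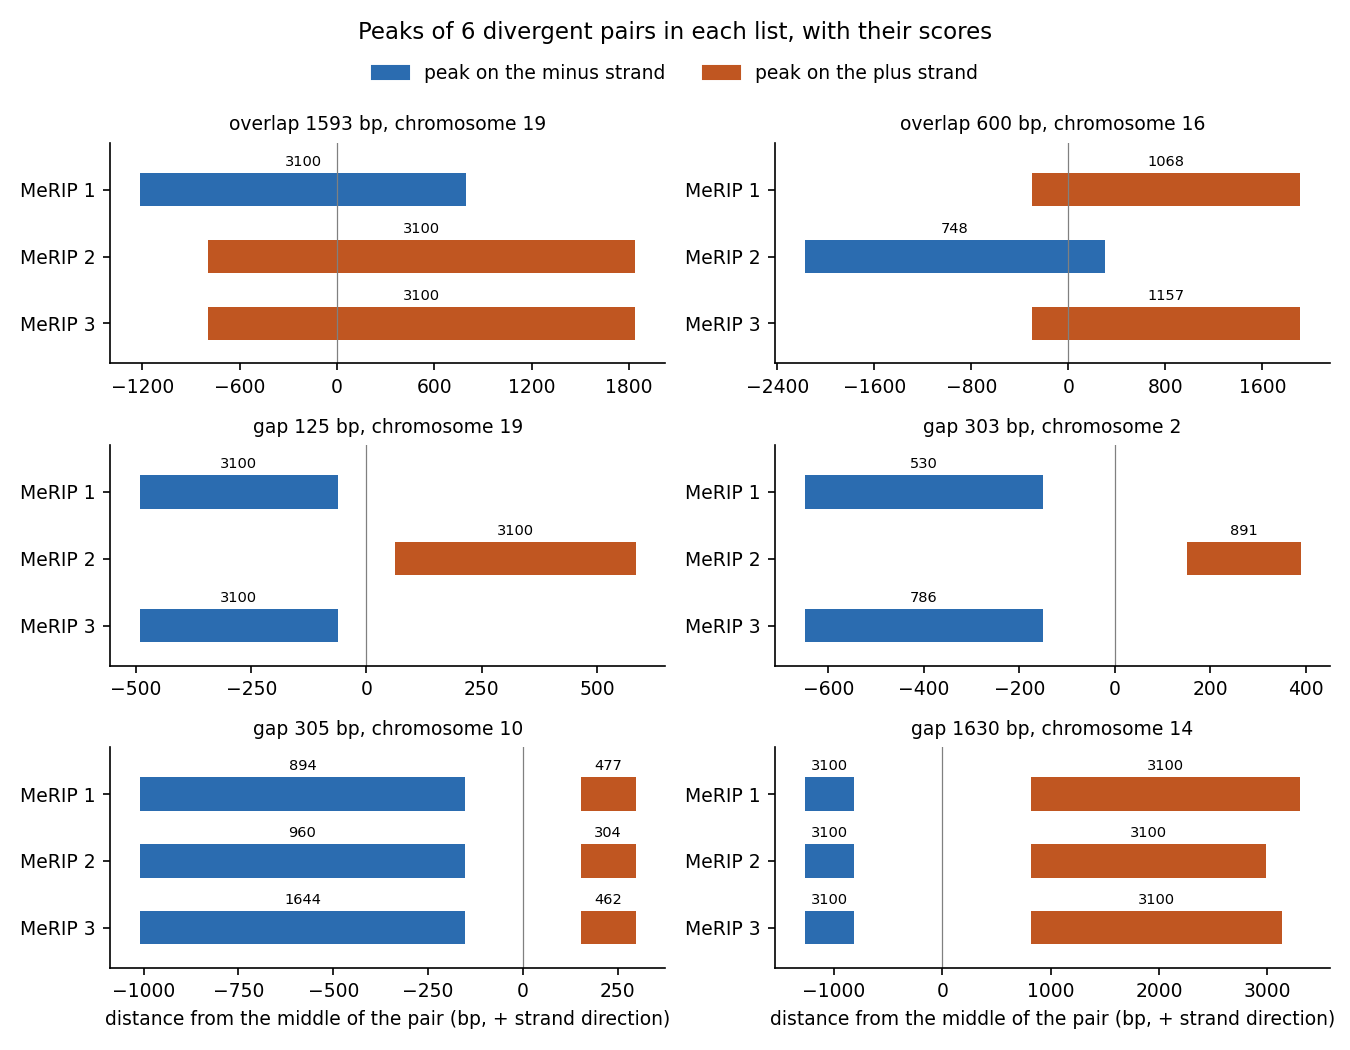
Peaks of 6 divergent pairs in each list, drawn to scale as bars against the distance in bp from the middle of the pair, blue for the minus strand and orange for the plus strand, with the score over each bar. In the upper 4 panels every list has a peak on 1 strand alone, and in the lower 2 panels (gaps of 305 and 1630 bp) every list has both peaks.

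Scores in such pairs differed between lists about as much as those of an ordinary region, which is partly built in. In every such pair 1 of the regions gave the scores of 2 lists. Same-strand neighbours and convergent pairs with exactly 1 region per list were not compared in this way. Taking the 1 score that each list gave the pair, the highest was a median of 1.68 times the lowest over the 31 pairs, and 17 pairs (54.8%) stayed within 2-fold. Regions of all 3 lists outside the divergent pairs had a median ratio of 1.66, and 63.3% of those 15182 regions stayed within 2-fold. For the 83 paired regions found in all 3 lists these values were 1.62 and 62.7%. The ratio is 1 wherever every list was at the ceiling. This held for 4 of the 31 pairs, 17 of the 83 paired regions and 18.9% of the other regions. All of these are ratios of scores, and the difference between the groups was not tested.

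The share of pairs with no common list was higher at small gaps. The gap is a value the rule used, and the smallest gap between divergent peaks within any list was 118 bp, so this share is partly set by the spacing of peaks within lists. Of the 43 pairs that overlapped or lay at most 500 bp apart, 27 (62.8%, 95% Wilson interval 47.9 to 75.6%) shared no list, against 12 of the 71 pairs with a wider gap (16.9%, 9.94 to 27.3%). Below 118 bp, overlaps included, 11 of 15 pairs shared no list, and from 118 to 500 bp 16 of 28 did (57.1%, 39.1 to 73.5%). The median gap was 275 bp for pairs that shared no list, 884 bp for those sharing 1, 991 bp for those sharing 2 and 1416.5 bp for those sharing all 3. A single pair with a gap of 500 bp or less was complete. It lay on chromosome 10, with scores of 894, 960 and 1644 in MeRIP 1, 2 and 3 on the minus strand at 5931004 to 5931860 and 477, 304 and 462 on the plus strand at 5932166 to 5932309.

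Neighbouring regions on the same strand gave the background. There were 3426 such neighbours at most 2000 bp apart, and at gaps of at most 500 bp 41.8% of them (36.4 to 47.4%, 306 neighbours) shared no list. Close regions were thus often found in different lists on the same strand as well. Over gaps of 0 to 500 bp, without overlaps, the divergent share was 58.3% (42.2 to 72.9%, 36 pairs), and its interval overlapped that of same-strand neighbours. Convergent pairs shared no list in 5 of 29 cases over these gaps (17.2%, 7.60 to 34.5%), with an interval below that of the divergent pairs. With overlaps counted in, the convergent share was 28.8% (18.3 to 42.3%, 52 pairs).

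Pairs were chosen by the same peaks that give these shares, and neighbouring regions are not independent replicates, so no test of the difference was made. The intervals cover counting error only. Over the 3 lists an exact two-sided sign test cannot go below p = 0.25.

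**Figure D3:**
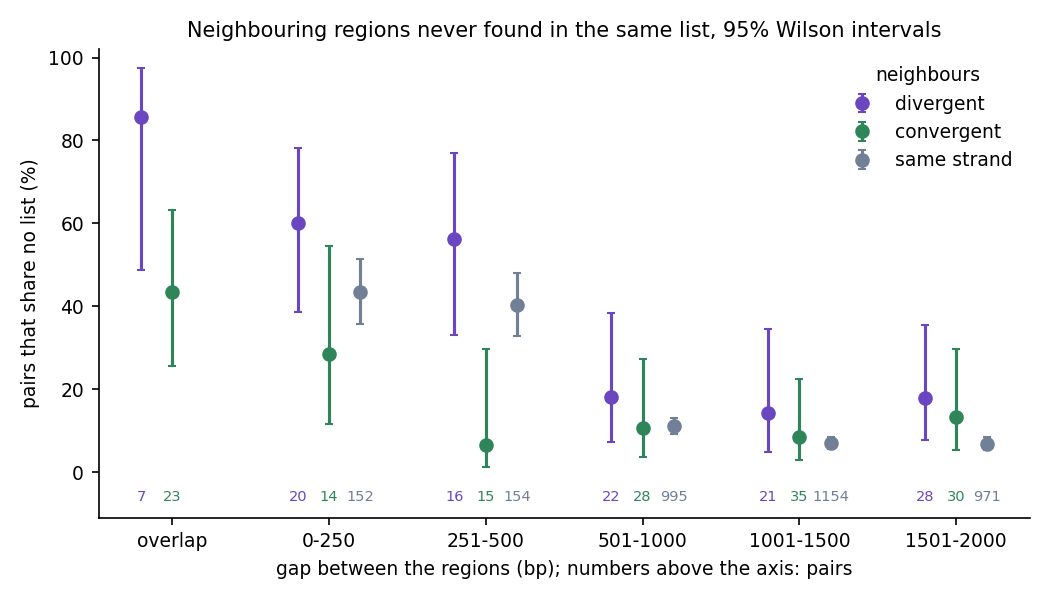
Percentage of neighbouring regions that were never found in the same list, by gap in bp, for divergent pairs, convergent pairs and neighbours on the same strand; bars are 95% Wilson intervals and the small numbers give the pairs in each class. The divergent pairs lie at 85.7% where they overlap, at 60.0 and 56.3% up to 500 bp, and between 14.3 and 18.2% at wider gaps.

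Pairs were also looked up in a list that had no part in choosing them. They were chosen again from 2 lists and looked up in the remaining one, holding out each list in turn, which gave 88 ± 5 pairs (SD, n = 3 held-out lists). The held-out list had both regions of 41.4 ± 3.84% of pairs, exactly 1 of 49.5 ± 4.26% and neither of 9.11 ± 0.518%. It held 66.1 ± 1.72% of the paired regions, against 77.2 ± 2.68% of all regions of the other lists. The paired regions were lower in 3 of 3 held-out lists. Regions of convergent pairs, at 71.5 ± 3.48%, were also lower in 3 of 3. For divergent pairs with gaps over 500 bp the share was 72.9 ± 1.87%. Peaks of 1 list never overlapped, which limits finding both regions of an overlapping pair. For pairs overlapping or at most 500 bp apart, exactly 1 region was found in 72.2 ± 8.77% of pairs and both in 16.2 ± 5.07%. For pairs with wider gaps these shares were 38.6 ± 7.14% and 53.6 ± 5.17%. Same-strand neighbours of at most 500 bp gave 48.1% ± 3 with exactly 1 and 42.1 ± 6.02% with both, and convergent pairs of that spacing 72.3 ± 7.69% and 22.3 ± 8.42%. The share with exactly 1 region thus differed between close divergent and close convergent pairs by less than the spread between lists. Of the regions of close pairs, 52.3 ± 2.62% of divergent and 58.5 ± 4.84% of convergent ones were found, with the convergent share higher in 3 of 3 held-out lists, and neither region was found in 11.6 ± 5.16% and 5.38 ± 2.33% of pairs.

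Within each list alone, divergent pairs were fewer and further apart. MeRIP 1 had 53, MeRIP 2 had 42 and MeRIP 3 had 44, a mean of 46.3 ± 5.86 (SD, n = 3 lists), with median gaps of 1275, 1205.5 and 1232 bp. The smallest gap between divergent peaks of one list was 176 bp in MeRIP 1, 118 bp in MeRIP 2 and 171 bp in MeRIP 3. At most 7 pairs per list lay within 500 bp (7, 7 and 6). Peaks were numbered along the genome in each list, and the numbers of the paired peaks followed directly on one another in 53 of 53 pairs of MeRIP 1, 39 of 42 of MeRIP 2 and 39 of 44 of MeRIP 3, so that nearly all had no other numbered peak between them.

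Convergent pairs outnumbered divergent pairs in every list, with 78, 67 and 67, and the ratio of divergent to convergent was 0.654 ± 0.0264 (SD, n = 3 lists). On the merged regions it was 114 to 145, or 0.786. This order depends on the width of peaks: with peaks of at most 1000 bp alone it turned to 2.62. Regions of convergent pairs were wider, with a median of 1174 bp against 380 bp in divergent pairs and 363 bp in regions outside divergent pairs.

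Regions of divergent pairs recurred less often than regions in general. A peak in all 3 lists was found in 83 of 221 (37.6%, 95% Wilson interval 31.4 to 44.1%), against 59.3% of all 25737 regions. A peak in 1 list alone was found in 77 (34.8%, 28.9 to 41.3%), against 22.8% of all regions, and in 2 lists in 61 (27.6%, 22.1 to 33.8%), against 17.9%. Regions of convergent pairs were also below the general share, with 49.0% (43.2 to 54.7%) in all 3 lists and 29.7% (24.7 to 35.3%) in 1 list. The rule takes regions of any list, and these shares are a description with no test.

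Among regions of 1 list, those in pairs of either arrangement had higher scores than the rest. In divergent pairs their median score was 193 (quartiles 92.1 and 696), against 87.2 (63.8 and 153) for other regions of 1 list. A score of 1000 or more was reached by 17 of the 77 (22.1%) and by 5.57% of the others. In convergent pairs the median was 208 and 30.6% reached 1000, so these scores were not particular to divergent pairs. Regions of divergent pairs made up 17 of all 340 regions of 1 list with such a score (5%). They made up 77 of all 5877 regions of 1 list with any score, and 0.859% of all regions. Of the 17, 12 had no partner peak in their own list, and 9 had a partner found in both other lists. These counts were not made for the lower-scoring regions of 1 list or for convergent pairs, so they show no trait of strong regions. Among regions of all 3 lists the medians were 997 in divergent pairs and 1043 outside them.

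Scores on the strands of a pair showed little relation to each other. Among pairs with both regions in a list, Spearman's rho between the scores of the minus-strand and plus-strand regions was 0.15 in MeRIP 1 (53 pairs), -0.21 in MeRIP 2 (43 pairs) and -0.16 in MeRIP 3 (44 pairs). These describe correlations across pairs that share libraries, and the sign differed between lists. Neither strand was the stronger throughout, with the plus-strand region higher in 24, 16 and 21 pairs and the minus-strand region in 27, 26 and 22.

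In the 22 pairs found complete in every list, the difference between strands was mostly steady. The same region had the higher score in all 3 lists in 17 pairs (77.3%, 95% Wilson interval 56.6 to 89.9%), 9 times the minus-strand region and 8 times the plus-strand region. The order changed between lists in 4 pairs, and 1 pair was tied at the ceiling throughout. The share was not computed for convergent pairs or same-strand neighbours, so a steady order is not shown to be particular to divergent pairs. The mean difference had a median size of 2.11 on the log2 scale of scores, with a median SD between lists of 0.52, and 11 pairs differed by over 2.

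The largest steady difference was on chromosome 9. Its minus-strand region at 140444620 to 140444986 had scores of 79.0, 119 and 68.6 in MeRIP 1, 2 and 3, and its plus-strand region at 140446526 to 140447007 had 3100 in every list. The groups of scores did not overlap, and the log2 difference of plus over minus was 5.16 ± 0.41 (SD, n = 3 lists). Next came chromosome 2, with 72.4, 67.7 and 103 on the minus strand at 3381419 to 3381653 and 2175, 3100 and 3100 on the plus strand at 3383446 to 3383647, a difference of 5.11 ± 0.35. The scores at the ceiling make these differences minimum sizes.

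In the opposite direction, the minus-strand region at 4662083 to 4664869 on chromosome 16 had 3100 in every list, and its plus-strand partner at 4666494 to 4666576 scored 160, 58.3 and 124, a log2 difference of -4.88 ± 0.76. The score of 160 in MeRIP 1 came from a peak covering only 4666575 to 4666576, while the peaks of MeRIP 2 and MeRIP 3 covered the whole partner. Chromosome 19 gave a pair with 164, 104 and 150 on the minus strand at 45681351 to 45681501 and 3100 throughout on the plus strand at 45682546 to 45685059 (4.50 ± 0.35). On chromosome 18 the minus-strand region at 72920805 to 72921303 had 452, 329 and 184, while 72922710 to 72923198 on the plus strand scored 3100 in all lists (3.36 ± 0.66). In these 5 pairs, with gaps from 1044 to 1792 bp, a region scoring 2175 or more in every list faced one scoring at most 452 in any list.

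**Figure D4:**
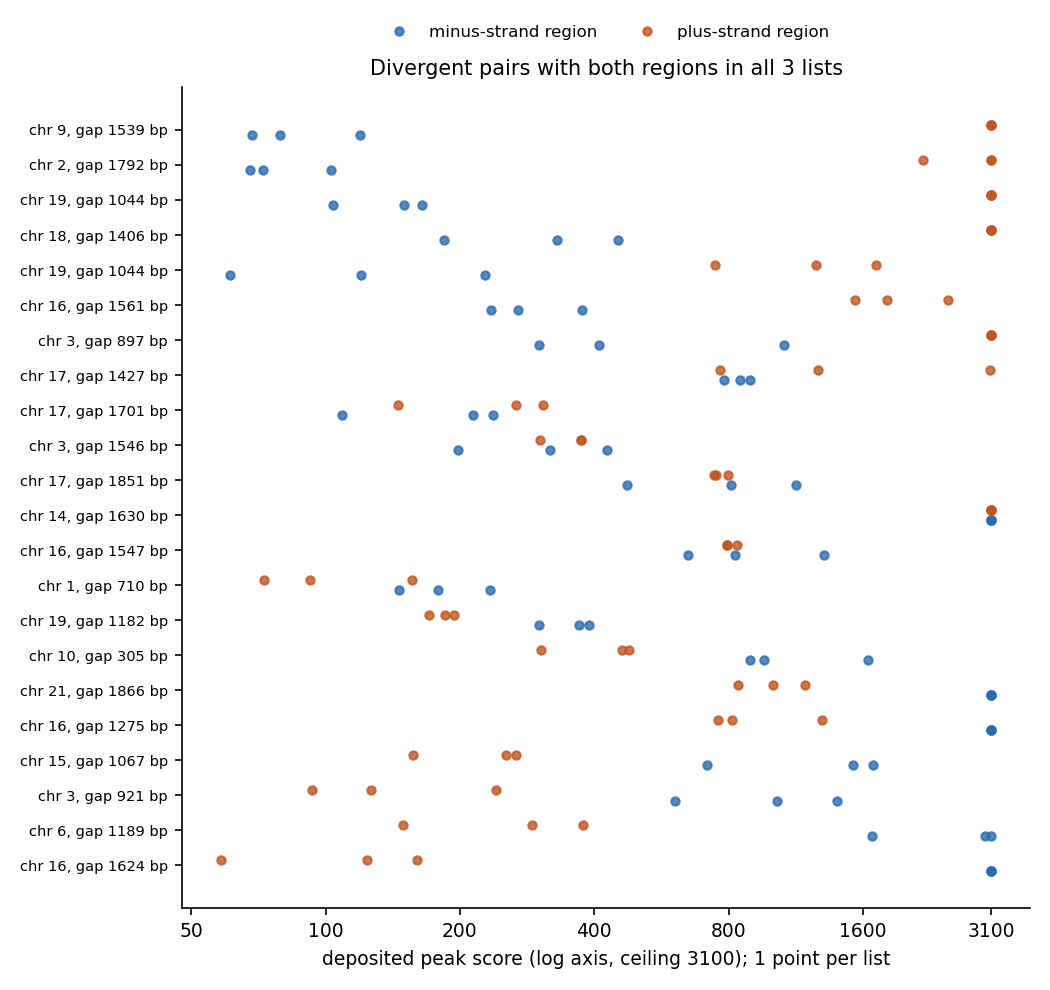
Scores of the 22 divergent pairs with both regions in all 3 lists, on a log axis with a ceiling of 3100, 1 point per list, blue for the minus-strand region and orange for the plus-strand region; rows run from the highest plus-strand excess at the top to the highest minus-strand excess at the bottom. The blue and orange points are apart in most rows and intermixed in the middle rows.

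Pairs with strong signal on both strands are given next. The naming rule set how many of these and of the largest differences are shown, so how common each kind was is not compared. By the lowest of its 6 scores, the strongest pair was on chromosome 14, with 3100 in every list both on the minus strand at 50085406 to 50085858 and on the plus strand at 50087489 to 50089976, 1630 bp apart. The pair on chromosome 21 had 3100 throughout at 47740937 to 47744424 on the minus strand and 1005, 839 and 1184 at 47746291 to 47746503 on the plus strand. A pair on chromosome 17 had 850, 783 and 893 at 73662508 to 73663168 on the minus strand, and 3081, 1265 and 766 at 73664596 to 73664705 on the plus strand, where MeRIP 3 fell below the minus-strand value and the other lists lay above it.

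On chromosome 16 a further pair had 3100 throughout at 89334029 to 89335071 on the minus strand and 812, 756 and 1293 at 89336347 to 89339452 on the plus strand. The fifth, also on chromosome 16, was balanced: 827, 647 and 1307 at 4524094 to 4524793 on the minus strand, and 791, 836 and 795 at 4526341 to 4526666 on the plus strand. Their log2 difference of -0.14 ± 0.55 was smaller than its spread between lists.

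The edges of the paired regions were compared next, since in a divergent pair the edges that face each other are the upstream (5′) edges of both regions. Among regions with 1 peak in each of a couple of lists, the upstream edge was at the same base in 82.9, 78.0 and 87.0% of paired regions (MeRIP 1 with 2, 1 with 3, and 2 with 3), a mean of 82.6 ± 4.50% (SD over couples of lists, which share lists). In regions outside divergent pairs it was 93.8 ± 0.331%. The downstream (3′) edge was at the same base in 85.9 ± 1.12% of paired regions and 79.0 ± 0.345% of the others. All 3 couples of lists lay on the same side for both edges. The facing edges of the merged regions set the gap by which pairs were admitted, so an edge that reaches further in 1 list brings its region closer to a partner. The shares for facing edges therefore draw on values the rule used and are a description.

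Width bears on these values, and at widths of up to 1000 bp the upstream values were 83.4 ± 6.73% and 95.3 ± 0.285%, while the downstream values came together at 93.0 ± 1.67% and 92.1 ± 0.284%. In pairs overlapping or at most 500 bp apart, a split that rests on the same edges, the upstream share was 69.6 ± 6.96% (a mean of 23.0 regions per couple of lists), against 86.4 ± 3.96% in the other pairs. Regions of convergent pairs face each other with their downstream edges. They had identical upstream edges in 94.2 ± 1.05% and identical downstream edges in 61.5 ± 1.03%. At up to 1000 bp wide their downstream share was 75% ± 3.

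**Figure D5:**
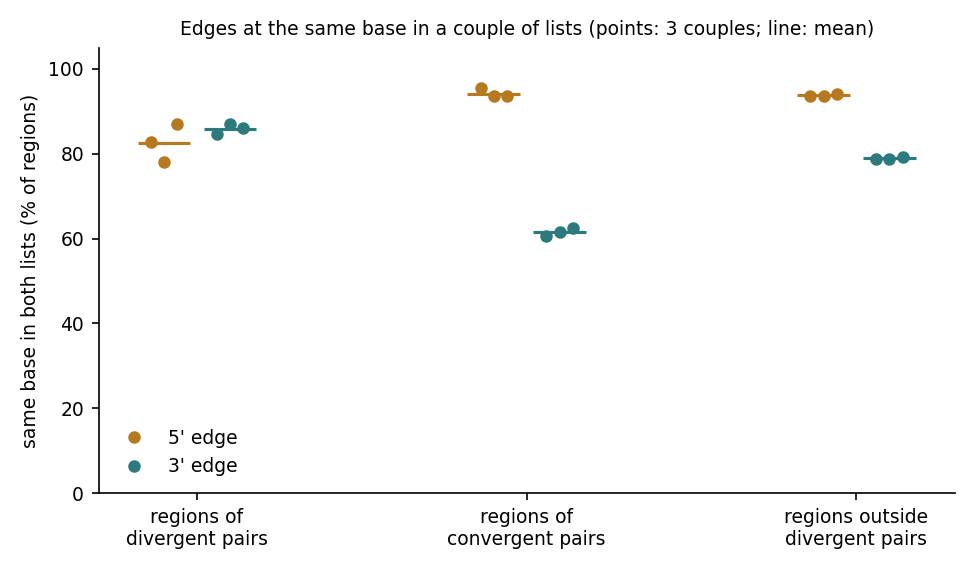
Percentage of regions whose upstream (5′) or downstream (3′) edge was at the same base in both of a couple of lists, for regions of divergent pairs, of convergent pairs and outside divergent pairs; points are the 3 couples of lists and lines their means. Regions of divergent pairs lie lower for the upstream edge (82.6 against 93.8%), and regions of convergent pairs lie lower for the downstream edge (61.5%).

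Divergent pairs were unevenly spread over the chromosomes. Chromosome 19 held 26 of 114 (22.8%) but 8.23% of all regions, and 49 of its 2118 regions (2.31%, 95% Wilson interval 1.75 to 3.05%) were in a pair. Chromosome 17 held 12 pairs, chromosome 16 held 9 and chromosome 11 held 8. Chromosome 1, with 9.86% of all regions, held 6 pairs, and 12 of its 2538 regions were in a pair (0.473%, 0.271 to 0.825%). No pair lay on chromosome 4 or Y. Convergent pairs were also numerous on chromosomes 17 (22 of 145) and 19 (21 of 145). Regions lie at different densities on these chromosomes, and the part of this density in the counts was not tested.

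The limit of 2000 bp did not fall in a gap of the distances. Just inside it were 3 pairs with gaps of 1981, 1975 and 1955 bp, and just outside 3 with gaps of 2051, 2094 and 2096 bp. The first of the inner ones, on chromosome 19, had a score of 50.1 in MeRIP 3 alone on the minus strand at 50143203 to 50143400, and 175, 158 and 164 on the plus strand at 50145382 to 50145499. The second of the outer ones, also on chromosome 19, had 2845, 2361 and 2216 at 4400321 to 4400565 on the minus strand and 1210, 1711 and 799 at 4402660 to 4402811 on the plus strand.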

How the data were processed

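IP and input RNA of 3 repeats in HEK293T cells were depleted of rRNA before sequencing, per the labels' protocols. The genome build hg19, HISAT2 (version 2.0.4) and cutadapt (version 1.9.3) are named in the submitters' processing notes. Names of peaks carry the word MACS. Not given in the sources used here are the caller's version and settings, how a strand was given to each peak and which peaks were kept. For every repeat the authors deposited 1 list with a score per peak (21286, 19851 and 20010 peaks); each list is of a single repeat. No header gives the scale of the score. Read depth is unknown, so no interval on reads is given.

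Peaks were merged and paired as the report states, with the highest score where a list had several peaks in a region. Shares carry 95% Wilson intervals for counting error. Same-strand neighbours are successive regions on 1 strand at most 2000 bp apart. Pairs were named by fixed rules: the 5 strongest by lowest score, the 5 largest steady differences, the 3 longest overlaps and those nearest the limit; others were chosen after their values were seen. Members, lists and rules were chosen with earlier results of these data known. Genes and sequences were not analysed, since no annotation or genome of the files' build was used. Code was tested on simulated data. Scripts ran in Python 3.11.15 with SciPy 1.17.1, pandas 2.3.3, NumPy 2.4.6 and Matplotlib 3.10.9. Alternatives covered gap limit, merging, score and width filters, recurrence, 1 pair per region and leaving out each repeat.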

Additional observations from a re-analysis of the deposited data

How the results depend on the processing

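No paired analysis was possible because each list already combines the IP and input of its repeat and holds no separate library values. Of 74 values under 15 alternatives, 39 stayed within a margin of the main value, 34 moved beyond it and 1 reversed. The margin was 1.5 times for the number of pairs, the 95% Wilson interval of the main value for shares of pairs, and 1 SD over couples of lists for edges and over lists for the ratio, so small moves of the ratio and edges count while larger ones of the number do not. The number of pairs was 43, 65 and 278 with gaps of at most 500, 1000 and 5000 bp, 37 with the upper-scoring peaks alone (those not below the median of their list) and 22 with regions of all 3 lists. The ratio of divergent to convergent pairs was 0.827 at 500 bp, 0.697 at 5000 bp, 0.493 with upper-scoring peaks, 0.629 with regions of all 3 lists, 0.759 with each region in 1 pair and 0.721 to 0.795 without 1 repeat; it reversed to 2.62 with peaks of at most 1000 bp, and the cause was not tested. Complete pairs made up 2.33, 6.15 and 29.9% at 500, 1000 and 5000 bp, and 31.2 to 35.2% without 1 repeat, where only 2 lists had to hold both regions. Overlapping pairs made up 16.3% at 500 bp, 2.52% at 5000 bp, 13.5% with upper-scoring peaks, 2.25% with peaks of at most 1000 bp and 0% with regions of all 3 lists. Pairs sharing no list, with alternatives chosen after seeing the data, made up 62.8, 47.7 and 17.6% at 500, 1000 and 5000 bp, 56.8% with upper-scoring peaks and 26.1 to 28.9% without 1 repeat. Among close pairs this share was 93.8% (of 16 pairs) with upper-scoring peaks and 55.2 to 64.3% without 1 repeat. The downstream edge was identical in 93.0% of regions of at most 1000 bp and in 84.3 to 89.7% without 1 repeat, and the upstream edge in 75.9 to 88.6% without 1 repeat. Depth is unknown, so how far it limits a missing peak could not be measured.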

Other observations

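A few regions had more than 1 divergent partner: 7 of 221 had 2 partners and the other 214 had 1. On chromosome 17 the minus-strand region at 43138256 to 43138477 had a score of 3100 in MeRIP 1 alone. Its plus-strand partners were 173 bp away at 43138651 to 43138828, with 3100 in MeRIP 2 alone, and 569 bp away at 43139047 to 43139278, with 3100 in MeRIP 3 alone. Each list thus had 1 peak at the ceiling in this locus, in a different place each time. On chromosome 14 the minus-strand region at 77923438 to 77923983 had 2983 in MeRIP 1 and 2065 in MeRIP 2. The nearer partner on the plus strand, at 77924373 to 77924612, had 3061 in MeRIP 3 alone, and the farther one, at 77925959 to 77926481, had 1133, 673 and 425. A minus-strand region on chromosome 19 at 19302890 to 19303400 was found in every list (193, 357 and 385), while its partners at 19303615 to 19303909 and 19304748 to 19304942 were found in MeRIP 1 and 2 (120 and 90.3) and in MeRIP 2 and 3 (217 and 140).

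On chromosome 19 a plus-strand region at 7968665 to 7968953, with 439 in MeRIP 1 alone, faced a minus-strand region of 3100 in MeRIP 2 and MeRIP 3 at 7963689 to 7967143 and another of 510 in MeRIP 2 alone at 7967620 to 7968427. This locus had no minus-strand peak in MeRIP 1 within these regions. These regions were chosen after their values were seen.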
